A study of Homo sapiens with 26 samples.

Results

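The genes described are 38 hypoxia and glycolysis genes of LoVo cells, a human colorectal cancer line. They come from a list of names: 16 genes of glycolytic enzymes, 6 of glucose and lactate transport and flux control, and 16 other targets of hypoxia-inducible factor (HIF). Each was looked up by symbol in both deposited expression tables, which list 18165 and 17734 genes, and all 38 were present in both. Of these, 36 passed the filter on low values (at least 1 FPKM, a fragment count scaled by transcript length and library size, in at least 2 libraries of a table). The glucose transporter gene SLC2A3 lay between 0.07 and 0.86 FPKM over all libraries and the carbonic anhydrase gene CA9 between 0 and 0.58 FPKM, so neither was tested.

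The series holds 26 RNA sequencing libraries in 13 groups of 2. The lines were LoVo cells labelled wild type for PIK3CA, which encodes the catalytic subunit of phosphoinositide 3-kinase, and lines made by lentiviral transfer of PIK3CA E545K or PIK3CA H1047R. In the first table, 18 libraries cover each line under DMSO vehicle for 72 h, 0.5 µM palbociclib (an inhibitor of the cell-cycle kinases CDK4 and CDK6) for 72 h, or conditioned medium from senescent cells, for which the source cells and hours are not given in the sources used here. In the second table, 8 libraries cover the E545K and H1047R lines under 0.5 µM palbociclib alone, with no stated hours, or palbociclib with 4 µM erlotinib (an inhibitor of the EGF receptor) for 48 h. All lines were grown in DMEM with serum, and the labels' protocols name no culture at low oxygen. The palbociclib experiment is labelled with 1 line of each mutation, E545K 2# and H1047R 3#. A difference between lines therefore cannot be told apart from a difference between mutations. Nothing in the labels states that the 2 libraries of a group came from separate cultures. Each p-value of the main fit therefore measures only the spread between libraries within groups, estimated over all groups of a table together. In bulk samples, fewer cells that express a gene and less RNA of it per cell cannot be told apart.

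HIF is a transcription factor made of an oxygen-labile alpha subunit (HIF1A or EPAS1) and the stable partner ARNT. In normal oxygen, prolyl hydroxylases such as those encoded by EGLN1 and EGLN3 mark the alpha subunit for destruction by the VHL ubiquitin ligase. In low oxygen, or when growth-factor and PI3K signalling raises its synthesis, the alpha subunit accumulates, binds sites with the core letters ACGTG or GCGTG, and raises genes of glucose uptake, glycolysis, lactate export, blood-vessel growth and mitochondrial removal. Tumour cells, colorectal cancer cells among them, often run glycolysis at a high rate even in normal oxygen, so several of these genes are abundant without hypoxia.

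Of the promoters that hold a HIF core match, those of the 6 members with the largest changes are given here, to show where the letters lie. The RefSeq promoter table (GRCh38.p14) held 61 start sites of 33 members; VEGFA, NDRG1, HILPDA, SLC2A3 and BNIP3L were not matched in it. The motif searched was ACGTG or GCGTG on both strands, so that CACGT and CACGC are the same motif on the other strand, and CACGTG, an E-box that other factors also bind, contains ACGTG on both. Capitals mark every match in the 250 bases before the start site, written 5′ to 3′ on the gene's strand.
ANKRD37: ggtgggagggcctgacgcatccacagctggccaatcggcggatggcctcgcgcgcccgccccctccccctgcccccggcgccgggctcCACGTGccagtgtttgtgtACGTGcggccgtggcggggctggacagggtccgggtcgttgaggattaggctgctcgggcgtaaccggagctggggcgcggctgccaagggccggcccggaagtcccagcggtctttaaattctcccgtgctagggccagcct
ALDOC: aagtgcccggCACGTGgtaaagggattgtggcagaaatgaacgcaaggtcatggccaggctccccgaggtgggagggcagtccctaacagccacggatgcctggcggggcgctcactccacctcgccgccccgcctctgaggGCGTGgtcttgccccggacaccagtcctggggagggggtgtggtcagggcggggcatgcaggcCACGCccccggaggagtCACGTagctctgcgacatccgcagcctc
ADM: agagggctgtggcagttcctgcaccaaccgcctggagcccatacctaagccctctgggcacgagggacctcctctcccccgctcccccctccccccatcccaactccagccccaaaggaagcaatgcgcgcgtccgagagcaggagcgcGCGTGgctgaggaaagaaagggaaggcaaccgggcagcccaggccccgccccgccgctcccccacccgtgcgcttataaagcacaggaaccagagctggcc
LDHA: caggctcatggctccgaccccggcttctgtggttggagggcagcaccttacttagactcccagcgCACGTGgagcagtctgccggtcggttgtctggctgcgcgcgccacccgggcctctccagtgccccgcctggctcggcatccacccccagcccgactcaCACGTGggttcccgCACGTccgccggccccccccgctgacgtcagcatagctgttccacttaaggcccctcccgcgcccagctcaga
HK1: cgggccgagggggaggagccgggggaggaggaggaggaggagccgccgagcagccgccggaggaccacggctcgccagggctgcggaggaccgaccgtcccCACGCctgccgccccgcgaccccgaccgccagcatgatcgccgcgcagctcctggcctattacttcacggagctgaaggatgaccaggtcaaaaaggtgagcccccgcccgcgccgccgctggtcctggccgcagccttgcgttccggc
SLC16A3: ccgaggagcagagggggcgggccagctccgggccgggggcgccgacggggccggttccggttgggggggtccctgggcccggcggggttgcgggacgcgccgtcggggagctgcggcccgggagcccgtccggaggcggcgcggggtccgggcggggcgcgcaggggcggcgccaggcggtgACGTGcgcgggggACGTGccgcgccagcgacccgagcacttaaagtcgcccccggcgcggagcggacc
The ANKRD37 promoter lies at chr4:185396591-185396840 on the plus strand and its matches start 162, 161 and 143 bases before the start site. The ALDOC promoter, at chr17:28576896-28577145 on the minus strand, and 1 of the 2 LDHA promoters, at chr11:18394313-18394562 on the plus strand, each hold 5 matches. Every CACGTG counts as 2 matches, 1 on each strand, so separate sites are fewer than matches in these promoters and in that of ANKRD37. In LDHA, the gene of the muscle-type lactate dehydrogenase subunit, 2 of the capital runs are the E-box CACGTG. The ADM promoter, at chr11:10304823-10305072 on the plus strand, holds 1 match, as does 1 of the 7 HK1 promoters, at chr10:69318814-69319063 on the plus strand. For SLC16A3, 1 of the 5 promoters, at chr17:82228792-82229041 on the plus strand, holds 2. The HK1 and SLC16A3 windows lie inside the spans of their genes (chr10:69270000-69401882 and chr17:82217934-82240086). They may therefore be transcribed from start sites further upstream, and are not upstream of the whole gene. Where a gene has several promoters, the first that holds a match is given, so its other promoters may hold matches too. Of the 33 members, 27 had a match in at least 1 promoter and 6 had none, EGLN3 among them, which says only that these letters are not in that window. A match was present in 37 of the 61 members' promoters (60.66%) and in 43.21% of the 35116 promoters of the table. By class, the share was 52.78% of 36 glycolytic promoters, 63.64% of 11 promoters of transport and flux genes, and 78.57% of 14 promoters of other HIF targets. For ACGTG alone the shares were 40.98% of the members' promoters and 18.51% of all, and for the E-box CACGTG 13.11% and 6.345%. These are matches of letters, and no binding was measured.

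Summed FPKM per library ranged from 441643 to 524290, and 11453 to 12157 genes reached 1 FPKM. After the filter, 12607 genes of the first table and 12463 of the second were tested. Of the low FPKM values examined, 2275 values of 312 genes in the first table and 939 values of 275 genes in the second, 57.1% and 61.6% lay within 0.15 of a whole multiple of a step. Whole reads were therefore not recovered, and the depth behind each value is unknown. All 9 epithelial markers listed were in the tables, with summed levels of 7028 to 16688 FPKM in the first table and 8617 to 10056 FPKM in the second. Most of the sum was KRT8 (3436 to 8612 FPKM) and KRT18 (2599 to 6489 FPKM). KRT20, a marker of differentiated colon cells, stayed at or below 1.2 FPKM. VIL1 lay between 0.2 and 3.76 FPKM and CDH17 between 0.38 and 19.8 FPKM. Markers of other cell types summed to 46.3 to 64.2 FPKM in the first table and 45.3 to 75.5 FPKM in the second, with CD68 the largest part at 24.1 to 68.9 FPKM. Of the fibroblast and muscle markers, COL3A1 reached 19.6 FPKM, ACTA2 9.74 FPKM, COL1A1 3.67 FPKM and COL1A2 1.55 FPKM. The fibroblast markers DCN and LUM and the endothelial marker CDH5 did not exceed 0.06 FPKM. What part the markers of other cell types have in the results was not tested.

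The 2 libraries of H1047R DMSO cells differed in most of these genes. They also spread more over all genes, with a residual SD of 0.170 on the log2 scale, as did H1047R palbociclib libraries of the first table (0.232). In the other groups of that table the SD was 0.0947 to 0.116. The main fit shared a single estimate of each gene's spread over all groups. The SE and p-values of H1047R comparisons therefore do not carry the larger spread of these libraries in full. Whether other gene sets differed likewise was not tested. In H1047R DMSO cells, 34 of the 36 tested members were higher in replicate 1 than in replicate 2, with a median log2 difference of 0.42, whereas 5425 of all 12607 tested genes were higher in replicate 1 and their median difference was −0.04. ANKRD37 was at 16.5 FPKM in replicate 1 and 6.01 FPKM in replicate 2, and NDRG1 at 32.6 and 18.7 FPKM. The H1047R palbociclib libraries of the second table also differed, with 29 of 36 members higher in replicate 1 (median log2 difference 0.17, against 0.00 over all genes). In the H1047R palbociclib libraries of the first table, 2 of 16 glycolytic genes were higher in replicate 1, with a median difference of −0.22. Without replicate 1, 5 of the 26 members called in H1047R against wild-type DMSO cells, 2 of the 11 called for palbociclib and 4 of the 15 called for conditioned medium lost their call, and without replicate 2 these numbers were 0, 6 and 0.

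**Figure D1:**
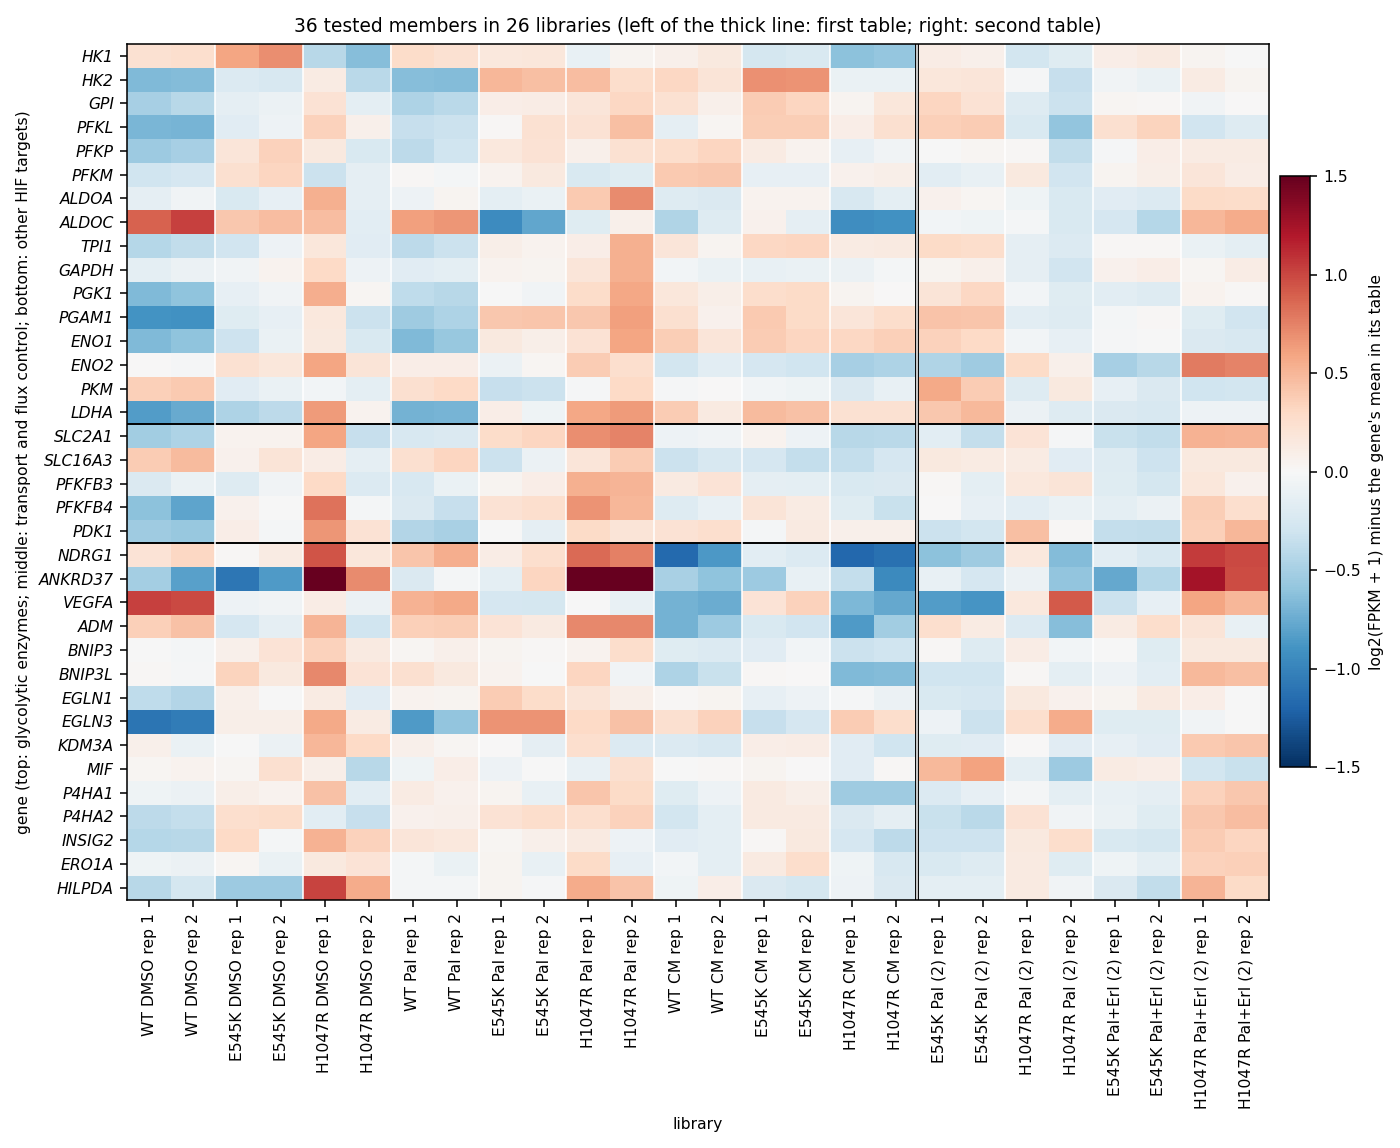
Heatmap of the 36 tested members (lines, by class from top to bottom) in the 26 libraries (columns, by group), coloured by log2(FPKM + 1) minus the gene's mean in its own table on a scale from −1.5 to 1.5. Of the 36 members, 25 and 28 are below their mean in the wild-type DMSO libraries, and 26 and 25 in H1047R conditioned medium. The same count over all genes was not made, and the median of all genes was also lower in wild-type than in mutant DMSO cells. H1047R DMSO replicate 1 is above replicate 2 in 34 of 36 members.

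Among the glycolytic enzymes, levels ran from abundant housekeeping genes to scarce isoenzymes. PKM, which encodes pyruvate kinase, and GAPDH, the gene of glyceraldehyde-3-phosphate dehydrogenase, were the most abundant members: PKM lay between 1410 and 3436 FPKM and GAPDH between 2240 and 4602 FPKM. The 16 enzymes together made up 1.71% and 1.75% of summed FPKM in wild-type DMSO cells and 2.21% and 1.84% in H1047R DMSO cells. The share reached 2.18% and 2.41% in H1047R cells under palbociclib in the first table, and was 1.42% and 1.46% under palbociclib in the second table. H1047R cells under palbociclib thus held the library with the highest share in 1 table and that with the lowest in the other. The share is taken within each library, so a scale factor of a library cancels. The tables hold separate libraries, and the second states no hours for palbociclib alone. Whether these moved with the share was not tested.

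LDHA, which turns pyruvate into lactate, was lowest in wild-type cells under DMSO and under palbociclib in the first table. It was at 265 and 279 FPKM in wild-type DMSO cells, 342 and 360 FPKM in E545K DMSO cells and 739 and 492 FPKM in H1047R DMSO cells. Under palbociclib it was at 289 and 293 FPKM in wild-type, 509 and 454 FPKM in E545K and 708 and 739 FPKM in H1047R cells. In conditioned medium the 3 lines were at 615 and 521, 660 and 642, and 557 and 557 FPKM. The order of the lines seen in DMSO was therefore not kept in conditioned medium, where wild-type and H1047R libraries overlapped. Libraries of the second table had LDHA at 514 and 542 FPKM in E545K cells under palbociclib, 363 and 338 FPKM in H1047R cells, and 332 and 328, and 367 and 367 FPKM once erlotinib was added.

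The hexokinase genes HK1 and HK2, whose products trap glucose in the cell, moved in different ways. HK1 was at 32.5 and 33.1 FPKM in wild-type, 42.2 and 45.7 FPKM in E545K and 20.4 and 17.4 FPKM in H1047R DMSO cells. Under palbociclib it was at 33.7 and 32.7, 31.0 and 31.3, and 25.6 and 28.4 FPKM, and in conditioned medium at 29.3 and 30.8, 22.8 and 23.4, and 17.7 and 18.1 FPKM in the same order of lines. No 2 of the lines overlapped within any of these treatments, and E545K went from above wild type in DMSO to below it in palbociclib and conditioned medium. The second table held HK1 at 25.7 and 25.1 FPKM in E545K and 19.4 and 20.8 FPKM in H1047R cells under palbociclib, and at 25.4 and 26 FPKM, and 24.3 and 23.5 FPKM with erlotinib. HK2, the isoenzyme induced by HIF, was at 8.70 and 8.79 FPKM in wild-type, 12.3 and 11.9 FPKM in E545K and 15.6 and 10.6 FPKM in H1047R DMSO cells. It was at 8.80 and 8.73 FPKM in wild-type, 20.6 and 20.0 FPKM in E545K and 20.1 and 17.4 FPKM in H1047R cells under palbociclib. In conditioned medium it was at 18.1 and 16.6, 23.6 and 23.4, and 13.3 and 13.3 FPKM. The wild-type libraries under palbociclib were close to those in DMSO, while both mutant lines were higher under palbociclib with no overlap.

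ALDOC, a minor aldolase gene, was the enzyme gene with the widest range. It was at 41.4 and 45.6 FPKM in wild-type, 29.2 and 30.5 FPKM in E545K and 30.5 and 19.5 FPKM in H1047R DMSO cells. Palbociclib libraries held 34.1 and 35.1, 10.9 and 12.3, and 19.2 and 23.1 FPKM, and conditioned-medium libraries 15.7 and 19.0, 23.0 and 19.8, and 11.0 and 11.2 FPKM. Wild-type DMSO cells were above all other libraries of the first table. For ALDOC the second table held libraries at 16.2 and 15.9 FPKM in E545K and 16.3 and 14.1 FPKM in H1047R cells under palbociclib, and at 13.8 and 12.2, and 24.1 and 25.1 FPKM with erlotinib. The H1047R libraries with erlotinib were above the other 6.

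Isoenzyme shares summarise these shifts within a family, as percent of the family's summed FPKM, with no test. HK2 made up 21.1% and 21.0% of HK1 plus HK2 in wild-type DMSO cells, 22.6% and 20.7% in E545K and 43.3% and 37.8% in H1047R DMSO cells. It made up 39.9% and 38.9% in E545K cells under palbociclib and 50.8% and 50.0% in conditioned medium. In wild-type cells the share stayed at 20.7% and 21.1% under palbociclib and was 38.1% and 35.0% in conditioned medium. E545K cells thus went from a share beside wild type in DMSO to one inside the H1047R range under palbociclib. ALDOC made up 6.96% and 7.24% of ALDOA plus ALDOC in wild-type DMSO cells and between 1.94% and 5.60% in every other library of the first table. ENO2, the neuronal enolase gene and a HIF target, made up 11.6% and 11.4% of ENO1 plus ENO2 in H1047R cells with erlotinib, against 7.54% and 6.93% with palbociclib alone. In E545K cells the same share was 4.41% and 4.59% with erlotinib and 3.56% and 3.46% without.

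**Figure D2:**
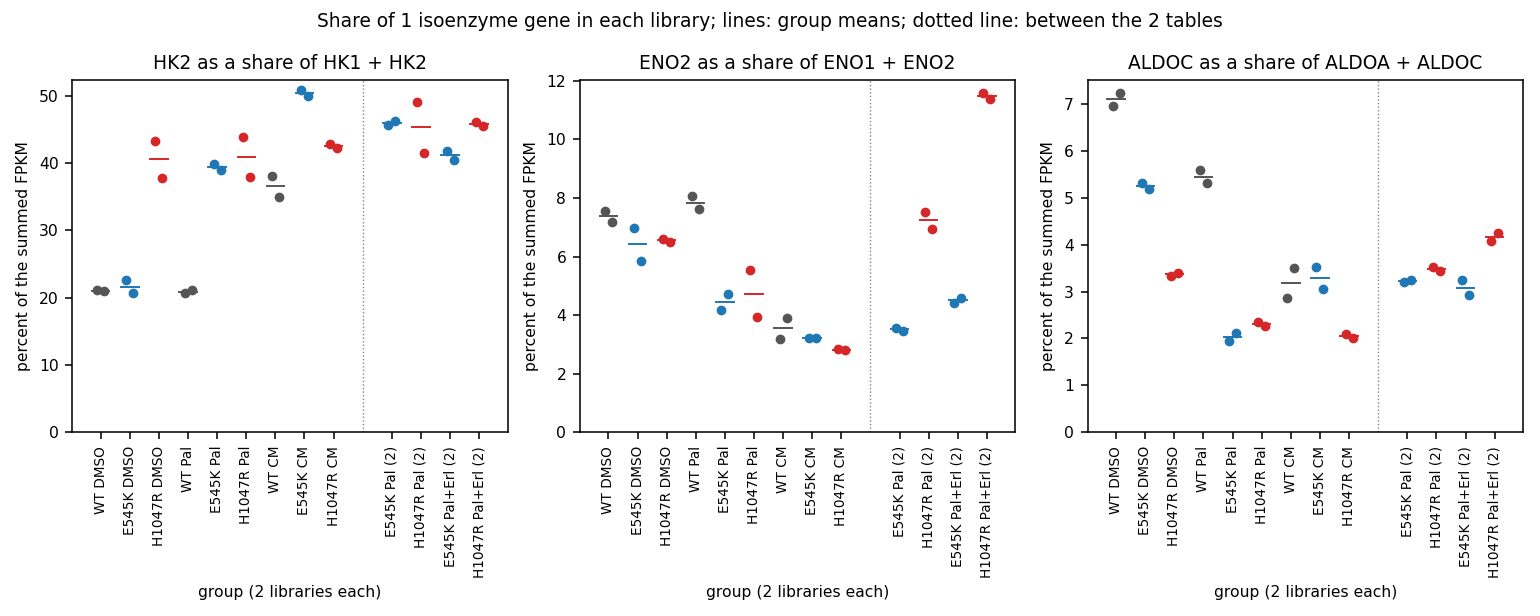
Percent of a family's summed FPKM taken by HK2 (of HK1 + HK2), ENO2 (of ENO1 + ENO2) and ALDOC (of ALDOA + ALDOC) in each library, by group, on axes from 0; points are the 2 libraries of a group. The HK2 share of wild-type cells is near 21% in DMSO and palbociclib and 35.0% to 38.1% in conditioned medium.

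Among the transport and flux genes, SLC2A1, the HIF-induced glucose transporter, was lowest within the first table in wild-type DMSO cells at 10.3 and 10.8 FPKM and highest in H1047R cells under palbociclib at 25.4 and 26.1 FPKM. In H1047R DMSO cells its libraries were 23.4 and 11.8 FPKM, and replicate 2 lay below both E545K libraries (15.8 and 15.9 FPKM). SLC16A3, which encodes the lactate exporter MCT4, ran the other way: it was at 28.1 and 30.1 FPKM in wild-type, 22.4 and 24.6 FPKM in E545K and 23.2 and 19.4 FPKM in H1047R DMSO cells. PFKFB4, the gene of a kinase that makes the phosphofructokinase activator fructose-2,6-bisphosphate, was scarce, with 2.68 and 2.27 FPKM in wild-type and 8.92 and 4.52 FPKM in H1047R DMSO cells. PDK1, whose product keeps pyruvate out of the citrate cycle, ranged from 9.36 to 23.4 FPKM and PFKFB3 from 14.8 to 30.7 FPKM.

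Of the other HIF targets, ANKRD37, a small ankyrin-repeat gene used in hypoxia signatures, set H1047R cells apart. It was at 2.01 and 1.44 FPKM in wild-type, 1.02 and 1.38 FPKM in E545K and 16.5 and 6.01 FPKM in H1047R DMSO cells. Under palbociclib it was at 2.68 and 3.20, 2.86 and 4.35, and 13.8 and 14.5 FPKM, and in conditioned medium at 2.06 and 1.83, 1.93 and 2.98, and 2.33 and 1.21 FPKM. H1047R cells were above both other lines in DMSO and palbociclib, and the 3 lines overlapped in conditioned medium. In the second table, however, H1047R cells under palbociclib held 2.72 and 1.62 FPKM beside 2.66 and 2.32 FPKM in E545K cells, and with erlotinib 8.34 and 6.77 FPKM beside 1.32 and 1.94 FPKM.

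NDRG1, a stress-response gene strongly induced by hypoxia, was high in 1 H1047R DMSO library and level with the other lines in the other. It was at 19.2 and 20.8 FPKM in wild-type, 16.7 and 18.1 FPKM in E545K and 32.6 and 18.7 FPKM in H1047R DMSO cells. Palbociclib libraries held 22.4 and 24.5, 17.9 and 19.8, and 30.6 and 28.8 FPKM, and conditioned-medium libraries 6.83 and 8.67, 14.7 and 14.3, and 6.73 and 7.08 FPKM. Within the first table, conditioned medium had the lowest levels in each line. NDRG1 in the second table was at 10.1 and 10.8 FPKM in E545K and 18.1 and 9.91 FPKM in H1047R cells under palbociclib, and at 14.3 and 13.5, and 34.5 and 33.0 FPKM with erlotinib. BNIP3L, a gene of mitochondrial removal, was at 13.1 and 12.6 FPKM in wild-type, 16.5 and 14.3 FPKM in E545K and 21.9 and 15.0 FPKM in H1047R DMSO cells. Under palbociclib it was at 15.4 and 14.3, 13.4 and 12.8, and 16.3 and 12.3 FPKM. In conditioned medium it was at 9.05 and 9.99, 13.0 and 12.9, and 7.77 and 7.80 FPKM in the same order of lines, below DMSO without overlap in each line. BNIP3L in the second table was at 11.8 and 11.9 FPKM in E545K and 15.0 and 13.3 FPKM in H1047R cells under palbociclib, and at 14.0 and 13.1, and 21.1 and 20.6 FPKM with erlotinib.

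VEGFA, the main growth factor for blood vessels, was highest in wild-type DMSO cells of the first table. It was at 66.3 and 64.7 FPKM there, 30.4 and 30.9 FPKM in E545K and 34.8 and 30.1 FPKM in H1047R DMSO cells. Under palbociclib it was at 46.3 and 48.1, 26.8 and 26.5, and 31.8 and 29.7 FPKM, and in conditioned medium at 19.2 and 18.8, 37.1 and 40.9, and 19.7 and 18.4 FPKM. E545K overlapped H1047R in DMSO, was the lowest line under palbociclib and was the highest in conditioned medium. VEGFA in the second table was at 23.2 and 22.5 FPKM in E545K and 47.4 and 81.3 FPKM in H1047R cells under palbociclib, and at 33.6 and 38.9, and 64.3 and 60.3 FPKM with erlotinib. ADM, which encodes the vasodilator adrenomedullin, was at 12.0 and 12.7 FPKM in wild-type, 7.45 and 8.17 FPKM in E545K and 13.4 and 7.22 FPKM in H1047R DMSO cells. Under palbociclib it was at 11.9 and 12.0, 10.7 and 10.1, and 15.7 and 15.6 FPKM, and in conditioned medium at 5.19 and 5.94, 7.63 and 7.30, and 4.62 and 6.03 FPKM. Like NDRG1, ADM was lower in conditioned medium than in DMSO in both wild-type and H1047R cells. ADM in the second table was at 8.37 and 7.63 FPKM in E545K and 5.84 and 4.06 FPKM in H1047R cells under palbociclib, and at 7.61 and 8.48, and 8.00 and 6.33 FPKM with erlotinib.

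EGLN3 and HILPDA complete the targets that the comparisons turn on. EGLN3, a HIF-induced prolyl hydroxylase gene that acts back on HIF, was at 1.66 and 1.74 FPKM in wild-type, 5.03 and 5.01 FPKM in E545K and 7.45 and 5.20 FPKM in H1047R DMSO cells. It was at 2.16 and 2.78, 8.03 and 8.07, and 5.96 and 6.73 FPKM under palbociclib, and at 5.72 and 6.19, 3.46 and 3.76, and 6.39 and 5.80 FPKM in conditioned medium. Wild-type cells were the lowest line in DMSO and palbociclib, and E545K cells the lowest in conditioned medium. EGLN3 in the second table was at 3.09 and 2.45 FPKM in E545K and 4.14 and 5.31 FPKM in H1047R cells under palbociclib, and at 2.79 and 2.80, and 3.13 and 3.30 FPKM with erlotinib. HILPDA, a lipid-droplet gene that blocks lipolysis, was at 19.0 and 21.3 FPKM in wild-type, 17.4 and 17.3 FPKM in E545K and 53.0 and 38.3 FPKM in H1047R DMSO cells, where even the lower H1047R library was above all libraries of the other lines.

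**Figure D3:**
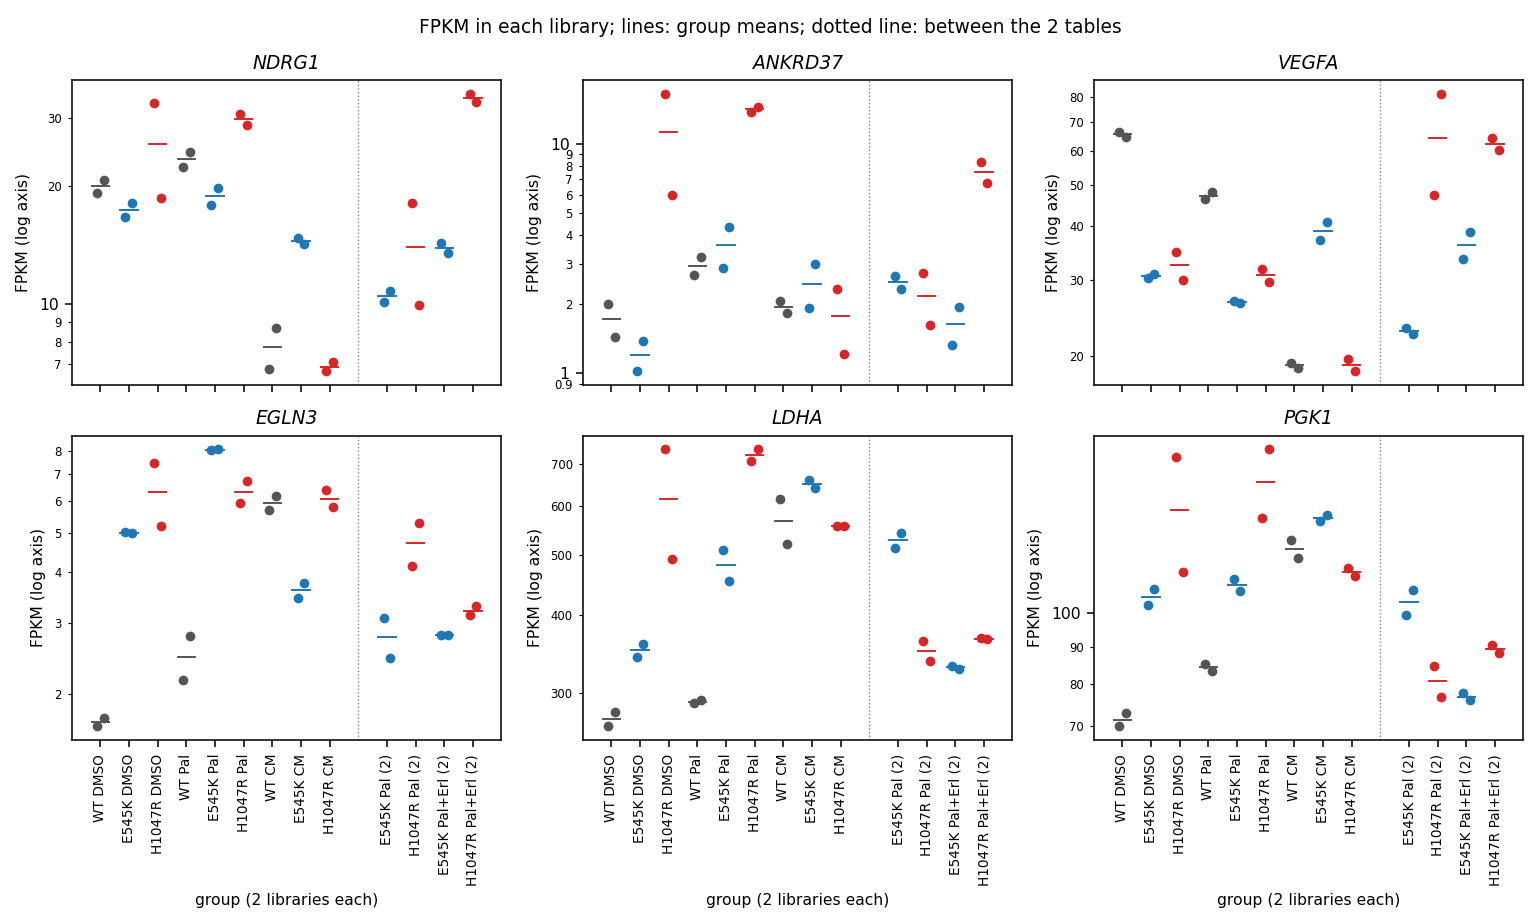
FPKM on a log axis of NDRG1, ANKRD37, VEGFA, EGLN3, LDHA and PGK1 in each library, by group; points are libraries, short lines group means, and colour the line (grey wild type, blue E545K, red H1047R; (2) marks the second table). ANKRD37 exceeds 6 FPKM in H1047R DMSO, H1047R palbociclib of the first table and H1047R palbociclib with erlotinib, and in no other group.

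The first question put to these values was how the mutant lines differed from wild-type cells without drug. Changes were tested with limma on log2(FPKM + 1), with Benjamini-Hochberg adjustment over all genes of the table, and a gene was called at an adjusted p below 0.05. The median of all genes moved by 0.25 in E545K and 0.26 in H1047R on the log2 scale, so each change is given relative to that median, while its p tests the change from 0. In E545K cells, 17 of 36 members were called higher and 5 lower, against 48.4% and 10.4% of all genes tested (58.8% in either direction); after median-centring the split was 5 and 9, after quantile normalisation 15 and 6, and on the TPM scale 21 and 4. The members' share of higher calls was therefore near that of all genes before centring. Centring turned the members' balance, but it shifts the change of every gene. The shares of all genes after centring, quantile normalisation or TPM scaling are not given here or below. Splits under these settings are therefore not a result about the members alone. The calls comprised 10 higher and 2 lower glycolytic enzymes, 3 and 1 transport and flux genes, and 4 and 2 other HIF targets, with median relative changes of 0.14, 0.29 and −0.16.

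Within E545K DMSO cells, EGLN3 had the largest relative rise among members. Its mean was 5.02 ± 0.0141 FPKM (SD, n = 2) against 1.70 ± 0.0566 FPKM in wild-type cells, a relative log2 change of 0.90 (SE 0.13, limma adjusted p = 3.22e-06). PFKP, the platelet-type phosphofructokinase gene, rose from 39.8 to 69.3 FPKM (0.53, SE 0.10, limma adjusted p = 1.26e-05). PGAM1, the gene of phosphoglycerate mutase, rose by 0.50 (SE 0.12, adjusted p = 7.65e-05), and P4HA2, a collagen prolyl hydroxylase gene, by 0.39 (SE 0.07, adjusted p = 4.06e-06). VEGFA fell by 1.32 (SE 0.08, adjusted p = 6.10e-08) and PKM by 0.76 (SE 0.10, adjusted p = 3.89e-04). ADM, ALDOC and SLC16A3 were called lower with relative changes of −0.85, −0.78 and −0.55, but each call rested on single libraries: without wild-type DMSO replicate 2 the limma adjusted p rose to 0.0576, 0.067 and 0.128.

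In H1047R DMSO cells, 21 members were called higher and 5 lower, against 49.9% and 17.5% of all genes (67.4% in either direction); centring gave 10 and 9, quantile normalisation 18 and 6, and the TPM scale 27 and 5. Without H1047R DMSO replicate 1 the split was 16 and 7 (47.7% and 15.6% of all genes), and without replicate 2 it was 27 and 5 (44.3% and 16.3%). The class medians were 0.18 for glycolytic enzymes, 0.35 for transport and flux genes and 0.03 for other HIF targets. ANKRD37 rose by 1.77 (SE 0.31, limma adjusted p = 4.53e-05), and by 1.08 without replicate 1 and 2.45 without replicate 2. EGLN3 rose by 1.16 (SE 0.13, adjusted p = 1.88e-07), LDHA by 0.88 (SE 0.14, adjusted p = 3.14e-06) and HILPDA by 0.87 (SE 0.12, adjusted p = 7.45e-07). Without replicate 1 these relative changes were 0.91, 0.57 and 0.61, and without replicate 2 they were 1.4, 1.2 and 1.11. PFKFB4 rose by 0.83, or by 0.38 without replicate 1.

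The 5 members called lower in H1047R cells were VEGFA, ALDOC, HK1, PKM and SLC16A3. VEGFA fell by 1.26 (SE 0.08, limma adjusted p = 3.73e-08), ALDOC by 1.07 (SE 0.15, adjusted p = 3.14e-04) and HK1 by 1.03 (SE 0.08, adjusted p = 7.18e-07). All 10 named calls of this comparison held without either H1047R DMSO library. Both mutant lines were set against the same wild-type libraries, so VEGFA at −1.32 and −1.26 and EGLN3 at 0.90 and 1.16 are values that share a control. HK1 was called in both lines, at 0.16 in E545K and −1.03 in H1047R cells.

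Palbociclib was compared with DMSO within each line. In wild-type cells 7 members were called higher and 1 lower, against 27.2% and 6.77% of all genes (34.0% in either direction), and centring gave 3 and 2. VEGFA fell by 0.60 (limma adjusted p = 3.68e-04), while INSIG2, a regulator of sterol synthesis and a HIF target, rose by 0.45 (adjusted p = 0.00117), EGLN1 by 0.32 (adjusted p = 9.18e-04) and P4HA2 by 0.30 (adjusted p = 3.68e-04). PGAM1 and PFKL were also called higher (0.26 and 0.22), but neither call held after centring or without any 1 library of these groups, and with any such library left out 3 or 4 members were called higher.

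In E545K cells palbociclib had 8 members called higher and 5 lower, against 32.9% and 19.3% of all genes (52.2% in either direction); centring gave 5 and 8, the TPM scale 11 and 4, and quantile normalisation 11 and 8. HK2 rose from 12.1 to 20.3 FPKM (0.62, SE 0.12, limma adjusted p = 2.42e-04) as HK1 fell from 43.9 to 31.2 FPKM (−0.56, SE 0.08, adjusted p = 1.34e-04). EGLN3 rose by 0.51 (adjusted p = 0.00137), PGAM1 by 0.48 (adjusted p = 0.00105) and HILPDA by 0.47 (adjusted p = 9.74e-04). The largest change was that of ALDOC, which fell by 1.37 (SE 0.15, adjusted p = 8.10e-06). ANKRD37 was called higher (0.97, adjusted p = 0.0113), but not without E545K DMSO replicate 1 (adjusted p = 0.0709) or E545K palbociclib replicate 2 (adjusted p = 0.108).

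The H1047R response to palbociclib depended on which libraries were used. With all libraries 9 members were called higher and 2 lower, against 19.5% and 19.8% of all genes (39.3% in either direction). Without H1047R DMSO replicate 1 the counts were 22 and 0 (19.1% and 21.7% of all genes; 1 member was lower at an unadjusted p below 0.05 in this limma fit), and without DMSO replicate 2 they were 3 and 7 (12.1% and 9.57%). Leaving out palbociclib replicate 1 gave 14 and 5, and leaving out palbociclib replicate 2 gave 6 and 0 (2 lower at an unadjusted p below 0.05). The class medians with all libraries were 0.27 for glycolytic enzymes, 0.32 for transport and flux genes and 0.05 for other HIF targets. When the fit was restricted to the groups compared, 0 members were called in this limma fit, with 6 higher and 1 lower at an unadjusted p below 0.05. PGAM1 rose by 0.62 (SE 0.12, adjusted p = 0.00134; 0.88 without DMSO replicate 1 and 0.37 without replicate 2) and P4HA2 by 0.58 (SE 0.07, adjusted p = 5.14e-05; 0.69 and 0.46), and these calls were lost only in the restricted fit (limma adjusted p = 0.136 and 0.0752). ADM (0.64), SLC2A1 (0.62) and HK2 (0.53) were called higher with all libraries, and without DMSO replicate 2 their limma adjusted p rose to 0.237, 0.276 and 0.0761.

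The responses themselves were compared between lines, as the mutant's palbociclib change minus the wild-type change. For E545K 6 members differed, against 25.7% of all genes (10.9% higher and 14.7% lower). The relative difference was above 0 for HK2 (0.74) and below 0 for ALDOC (−0.93), INSIG2 (−0.63), HK1 (−0.45), P4HA2 (−0.43) and PFKM (−0.40). For H1047R 7 members differed, 5 higher and 2 lower, against 5.16% and 17.4% of all genes (22.6% in either direction); centring gave 6 and 1 and the TPM scale 2 and 5. The count was 15 and 3 without H1047R DMSO replicate 1, 1 and 8 without H1047R DMSO replicate 2, and 1 or 2 in each direction without any 1 of the wild-type libraries.

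**Figure D4:**
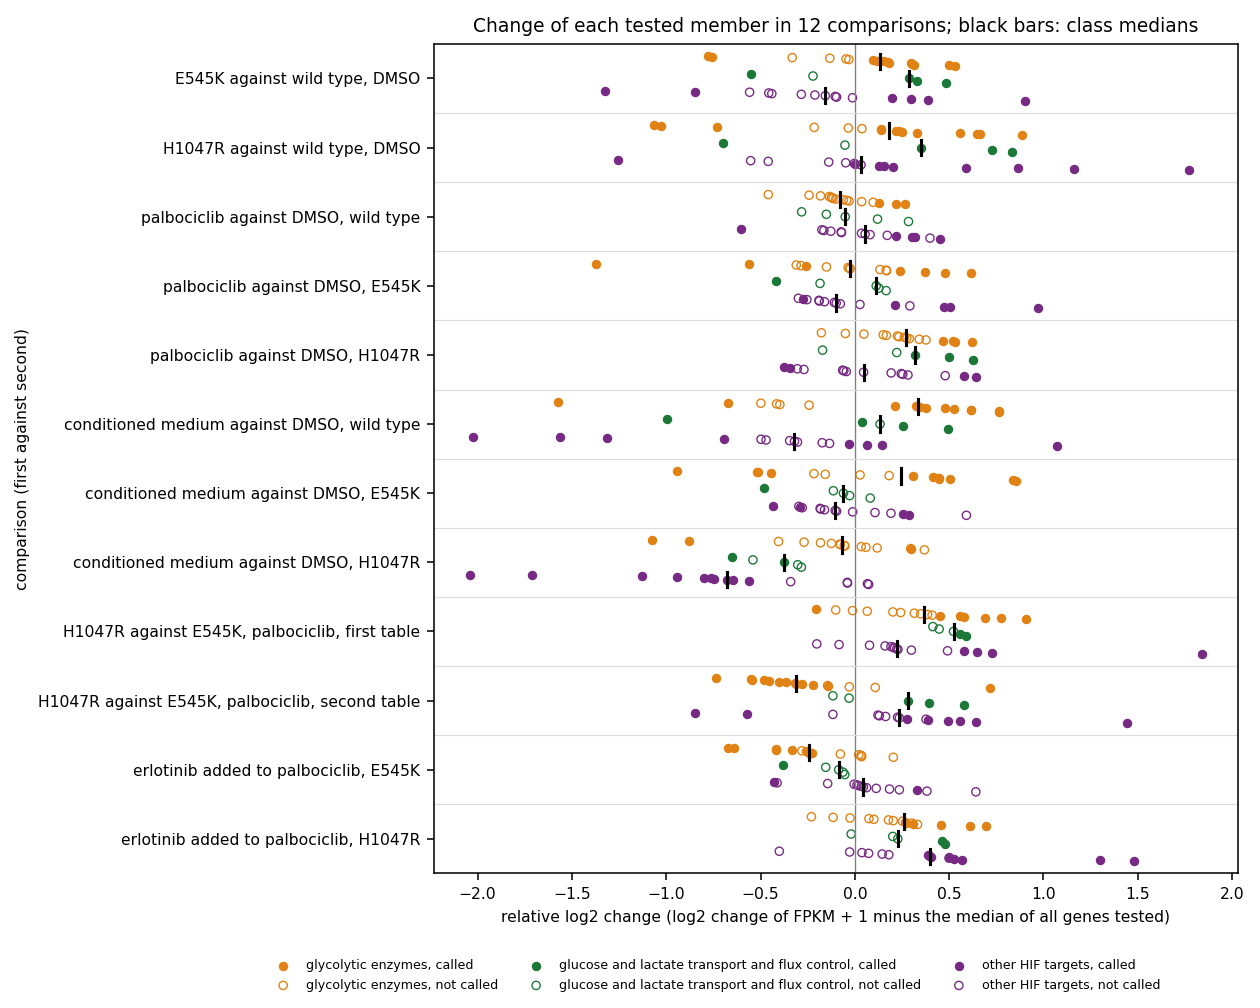
Relative log2 change (log2 change on log2(FPKM + 1) minus the median of all genes tested) of each tested member in the 12 direct comparisons, by class; filled points passed limma at an adjusted p below 0.05, open points did not, and black bars are class medians. Other HIF targets sit lowest in H1047R cells in conditioned medium (median −0.68) and highest in H1047R cells with erlotinib (0.40).

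Conditioned medium was likewise compared with DMSO within each line. In wild-type cells 17 members were called higher and 7 lower, against 51.9% and 18.6% of all genes (70.5% in either direction), where the median of all genes moved by 0.29; centring gave 10 and 14 and quantile normalisation 14 and 10. Of 16 glycolytic enzymes, 10 were called higher and 2 lower (8 and 5 after centring). Of 15 other HIF targets, 4 were called higher and 4 lower (1 and 8 after centring). Their median relative changes were 0.33 and −0.32, with 0.13 for transport and flux genes. The difference between the classes itself was not tested, and both classes held calls in both directions. The other target EGLN3 rose by 1.07 and the enzyme gene ALDOC fell by 1.57.

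Of the enzymes called higher in wild-type cells, PGAM1, LDHA, HK2 and ENO1 had the largest relative rises. Not every step rose: ALDOA had its lowest group mean of the first table here (528 FPKM). PKM had its highest in wild-type DMSO cells (3397 FPKM). PGAM1 rose from 115 to 241 FPKM (0.77, limma adjusted p = 1.45e-06), LDHA from 272 to 568 FPKM (0.76, SE 0.14, adjusted p = 6.14e-06), HK2 from 8.74 to 17.3 FPKM (0.62, adjusted p = 1.00e-05) and ENO1, the main enolase gene, from 490 to 920 FPKM (0.61, SE 0.13, adjusted p = 1.71e-05). EGLN3 rose by 1.07 (SE 0.13, adjusted p = 2.36e-07). In the same cells VEGFA fell by 2.03 (SE 0.08, adjusted p = 1.47e-10), ALDOC by 1.57 (SE 0.15, adjusted p = 3.29e-06) and NDRG1 by 1.56 (SE 0.17, adjusted p = 1.08e-05). ADM fell by 1.31 (SE 0.18, adjusted p = 1.26e-04) and SLC16A3 by 1.00 (SE 0.10, adjusted p = 2.29e-05). All 10 of these calls held under each alternative and each left-out library.

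In E545K cells conditioned medium had 10 members called higher and 7 lower, against 32.4% and 24.9% of all genes (57.3% in either direction), and centring gave 8 and 10. Of the enzymes 8 were called higher and 4 lower, while 2 other HIF targets were called higher and 2 lower (1 and 5 after centring). HK2 rose by 0.85 (SE 0.12, limma adjusted p = 1.96e-05), LDHA by 0.84 (SE 0.14, adjusted p = 5.59e-05) and ENO1 by 0.50 (adjusted p = 0.00201). HK1 fell by 0.94 (SE 0.08, adjusted p = 2.54e-07), ENO2 by 0.52 (adjusted p = 9.67e-04) and PFKM, the muscle-type phosphofructokinase gene, by 0.44 (adjusted p = 1.66e-04). VEGFA, lower in the other lines, rose by 0.29 (adjusted p = 0.0015).

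In H1047R cells conditioned medium had 1 member called higher and 14 lower, against 8.65% and 5.97% of all genes (14.6% in either direction). Without H1047R DMSO replicate 1 the counts were 3 and 11 (6.92% and 5.12% of all genes), and without replicate 2 they were 1 and 20 (4.81% and 3.97%). Of the 14, 10 were other HIF targets of 15 tested, and 9 of these were called without DMSO replicate 1 and 10 without replicate 2. None of the other HIF targets was called higher in this limma fit, and 0 were higher at an unadjusted p below 0.05. The median relative change was −0.68 for other HIF targets, −0.37 for transport and flux genes and −0.07 for glycolytic enzymes.

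ANKRD37 fell by 2.04 in those cells (SE 0.31, limma adjusted p = 0.00103), from 11.2 ± 7.41 to 1.77 ± 0.792 FPKM (SD, n = 2). NDRG1 fell by 1.71 (SE 0.17, adjusted p = 5.93e-05), BNIP3L by 1.13 (SE 0.14, adjusted p = 2.87e-04), ALDOC by 1.08 (SE 0.15, adjusted p = 6.87e-04) and HILPDA by 0.94 (SE 0.12, adjusted p = 2.44e-04). Without DMSO replicate 1 these relative changes were −1.36, −1.3, −0.85, −0.75 and −0.69, and without replicate 2 they were −2.73, −2.13, −1.42, −1.41 and −1.2, so the size but not the direction depended on the DMSO library. ENO2 (−0.88), ADM (−0.80), INSIG2 (−0.76), VEGFA (−0.75), P4HA1 (−0.68), KDM3A (−0.64), BNIP3 (−0.56), PFKFB4 (−0.65) and PDK1 (−0.37) were the rest of the 14. The lone call upward was PFKM (0.30). Without DMSO replicate 1 the calls of ADM (−0.38, limma adjusted p = 0.0568), PFKFB4 (−0.21, adjusted p = 0.246), PDK1 (−0.13, adjusted p = 0.370) and PFKM (0.23, adjusted p = 0.0706) were lost. Without replicate 2 all 15 calls held. PFKFB4 and PFKM also lost their call when only the groups compared were fitted (adjusted p = 0.17 and 0.0888) and without conditioned-medium replicate 2 (adjusted p = 0.174 and 0.0681), and PFKFB4 without conditioned-medium replicate 1 (adjusted p = 0.0898) and with no filter (adjusted p = 0.0688).

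Set against the wild-type response to conditioned medium, 13 members differed in E545K and 24 in H1047R cells, where 47.1% and 50.9% of all genes did. These values share the wild-type libraries and include the differences in DMSO given above. In E545K cells 5 were higher and 8 lower, against 10.0% and 37.1% of all genes (8 and 6 members after centring), with VEGFA at 2.3 (limma adjusted p = 3.77e-09), NDRG1 at 1.25 (adjusted p = 0.00321), ADM at 1.19 and ALDOC at 1.05 relative to all genes. In H1047R cells 2 were higher and 22 lower, against 10.4% and 40.5% of all genes (4 and 10 members after centring, 4 and 20 without H1047R DMSO replicate 1, and 1 and 26 without replicate 2), with median differences of −0.26 for glycolytic enzymes, −0.68 for transport and flux genes and −0.16 for other HIF targets. LDHA (−0.90), PDK1 (−0.88) and HILPDA (−1.02) were among those lower in the H1047R response, at −0.58, −0.62 and −0.76 without DMSO replicate 1 and −1.21, −1.12 and −1.27 without replicate 2.

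The H1047R and E545K lines were compared directly under palbociclib in both tables, which hold separate libraries and were fitted apart. In the first of these, 12 members were higher in H1047R and 1 lower, against 4.75% and 11.5% of all genes (16.3% in either direction). Without E545K palbociclib replicate 1 or 2 the counts were 4 and 1, and 5 and 0, and without H1047R palbociclib replicate 1 or 2 they were 15 and 1, and 8 and 1. ANKRD37 was higher in H1047R cells by 1.84 (SE 0.31, limma adjusted p = 0.00188) and ALDOC by 0.91 (SE 0.15, adjusted p = 0.00284). The class medians were 0.37 for glycolytic enzymes, 0.52 for transport and flux genes and 0.22 for other HIF targets.

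Among the second set of libraries, 10 members were higher in H1047R cells and 14 lower, against 21.5% and 30.1% of all genes (51.6% in either direction), and 12 of the 14 were glycolytic enzymes. The class medians there were −0.31, 0.28 and 0.24. PGAM1 was lower in H1047R cells, at 151 against 229 FPKM (−0.55, SE 0.05, limma adjusted p = 3.06e-05), as was LDHA at 351 against 528 FPKM (−0.55, SE 0.05, adjusted p = 4.11e-05). PFKL, the liver-type phosphofructokinase gene, was lower by 0.74 (adjusted p = 4.62e-04) and MIF, a cytokine gene and HIF target, by 0.85 (SE 0.11, adjusted p = 2.57e-04). VEGFA was higher in H1047R cells by 1.45 (SE 0.20, adjusted p = 6.22e-04), by 1.83 without H1047R replicate 1 and 1.06 without replicate 2, and ENO2 by 0.71 (adjusted p = 1.55e-04).

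Between the tables, ENO2 and PFKFB3 were higher in H1047R cells in both, while ALDOA, PGK1, PKM, LDHA and ADM were higher in the first table and lower in the second. In the first table, the ALDOA call was lost without H1047R palbociclib replicate 2 (limma adjusted p = 0.0735), without E545K palbociclib replicate 1 (adjusted p = 0.0694) and with only the groups compared (adjusted p = 0.0924). The LDHA call there was lost without E545K palbociclib replicate 2 (adjusted p = 0.0902), after quantile normalisation (adjusted p = 0.0837) and with only the groups compared (adjusted p = 0.107). The second table states no hours for palbociclib alone, and whether hours, culture or processing moved with these 5 opposite calls was not tested.

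Erlotinib added to palbociclib gave mostly lower calls in E545K cells and higher calls in H1047R cells. The libraries with erlotinib are labelled 48 h, whereas palbociclib alone has no stated hours. A change with erlotinib therefore cannot be told apart from one with hours in drug. In E545K cells 1 member was called higher and 10 lower, against 7.10% and 9.11% of all genes (16.2% in either direction), and 8 of the 10 were glycolytic enzymes; with any 1 of the 4 libraries left out 4 or 5 members were called lower. In H1047R cells 15 were called higher and 0 lower, against 3.01% and 6.35% of all genes (9.36% in either direction), although 3 were lower at an unadjusted p below 0.05 and the TPM scale gave 13 and 2. The 15 comprised 6 glycolytic enzymes, 2 transport and flux genes and 7 other HIF targets. Without H1047R erlotinib replicate 1 or 2 they numbered 7 and 4 (0.337% and 0.201% of all genes were then called higher), and without H1047R palbociclib replicate 1 the counts were 25 and 3. The class medians for enzymes, transport and flux genes and other HIF targets were −0.25, −0.09 and 0.05 in E545K cells and 0.26, 0.23 and 0.40 in H1047R cells.

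LDHA led the fall in E545K cells, from 528 to 330 FPKM (−0.67, SE 0.05, limma adjusted p = 2.83e-04). PGK1, the gene of phosphoglycerate kinase, fell from 104 to 76.8 FPKM (−0.42, adjusted p = 0.00382) and PGAM1 from 229 to 171 FPKM (−0.42, adjusted p = 0.00149). PKM was also called lower (−0.64, adjusted p = 0.00666), and its call was lost without single libraries, at adjusted p values of 0.0659 and 0.0599. The remaining enzymes called lower were ENO1 (−0.33), TPI1 (−0.26), GPI (−0.24) and ALDOA (−0.23).

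In H1047R cells with erlotinib, ANKRD37 rose by 1.48 (SE 0.18, limma adjusted p = 0.00320) and ALDOC by 0.69 (SE 0.08, adjusted p = 0.00320). NDRG1 rose by 1.3 (SE 0.21, adjusted p = 0.00948), but its libraries under palbociclib alone were unequal, and the call was lost without erlotinib replicate 1 (adjusted p = 0.0723) or replicate 2 (adjusted p = 0.0829). ENO2 rose by 0.61 (SE 0.07, adjusted p = 0.00352) and BNIP3L by 0.57 (adjusted p = 0.00401). When only the groups compared were fitted, the 15 calls went to 2, and the limma adjusted p was 0.0532 for ENO2, 0.0603 for BNIP3L and 0.0904 for NDRG1. KDM3A, a HIF-induced histone demethylase gene (0.53), the collagen hydroxylase genes P4HA1 (0.50) and P4HA2 (0.39), SLC2A1 (0.46) and ERO1A, a disulphide-forming oxidase gene of the endoplasmic reticulum (0.40), were called higher too. VEGFA was not among them, with means of 64.3 FPKM without and 62.3 FPKM with erlotinib.

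The erlotinib response differed between the lines for 8 members, all higher in H1047R cells, where 0.899% of all genes were called higher and 1.27% lower (2.17% in either direction). They were LDHA (0.78, limma adjusted p = 0.00315), ALDOC (0.98), ALDOA (0.69), PGK1 (0.60), ENO2 (0.58), GPI (0.51), PGAM1 (0.40) and ANKRD37 (1.90, adjusted p = 0.0133). In this limma fit 0 members were called lower, and 2 were lower at an unadjusted p below 0.05. The count rested on few libraries: it was 27 and 3 without H1047R palbociclib replicate 1, 17 and 1 without H1047R palbociclib replicate 2, and 1 or 2 higher without any 1 of the other 6 libraries.

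The genes of HIF subunits and their regulators were described beside the targets. HIF1A stayed between 20.2 and 29.1 FPKM over all 26 libraries and was called in 0 of the 12 direct comparisons by limma, with 3 at an unadjusted p below 0.05. EPAS1, the gene of the HIF-2 alpha subunit, lay between 29.2 and 54.5 FPKM and was called higher in 4 of the 12 and lower in 1. The lower call was in E545K cells in conditioned medium (from 54.5 to 32.0 FPKM, relative change −0.80, limma adjusted p = 7.59e-08). ARNT, between 9.72 and 18.2 FPKM, was called lower in 5 of the 12 and higher in 0. Of 14 HIF subunits and regulators tested, 7 were called higher and 2 lower in E545K DMSO cells, where 48.4% and 10.4% of all genes were, and 6 and 2 in H1047R DMSO cells, where 49.9% and 17.5% of all genes were. In H1047R cells 0 of the 14 were called in conditioned medium (2 at an unadjusted p below 0.05, both higher) and 0 with erlotinib (2 higher and 4 lower at an unadjusted p below 0.05). Transcript levels of HIF1A and EPAS1 do not measure the amount of their proteins.

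A list of further hypoxia-induced genes outside the 38 was counted in the same comparisons. In H1047R cells in conditioned medium 1 was called higher and 6 lower of 19 tested, against 8.65% and 5.97% of all genes, with DDIT4, an inhibitor of mTOR signalling, at a relative change of −1.3, ANGPTL4, a lipase inhibitor, at −1.23 and BHLHE40, a transcriptional repressor, at −1.08. In H1047R cells with erlotinib 5 of 18 were called higher and 0 lower, against 3.01% and 6.35% of all genes (2 were lower at an unadjusted p below 0.05 in limma), with ANGPTL4 at 1.06 (5.19 to 11.5 FPKM, limma adjusted p = 0.00283), BHLHE40 at 0.74 and DDIT4 at 0.65. In E545K cells with erlotinib 3 were called higher and 2 lower, against 7.10% and 9.11% of all genes, and DDIT4 rose by 1.31 (62.2 to 155 FPKM, adjusted p = 6.35e-04). In wild-type cells in conditioned medium 10 of 19 were called higher and 5 lower, near the 51.9% and 18.6% of all genes, and DDIT4 fell by 3.09 (271 to 38.6 FPKM, adjusted p = 2.03e-09) and BHLHE40 by 2.86 (105 to 16.9 FPKM, adjusted p = 5.37e-10).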

How the data were processed

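The authors deposited FPKM values for 26 libraries in 2 tables. They worked with the GRCh38 build and name DESeq2 1.4.5, RSEM 1.3.1, HISAT2 2.1.0 and Bowtie2 2.3.4.3, per the submitters' processing notes, which give no roles; how reads of near-identical copies such as those of GAPDH, PGK1 or LDHA were shared out is not given in the sources used here. Groups came from the labels. FPKM was converted to log2(FPKM + 1), genes that reached 1 FPKM in fewer than 2 libraries of a table were dropped, and limma 3.58.1 (R 4.3.3, with a mean-variance trend) was fitted to all groups of each table, with Benjamini-Hochberg adjustment over all genes in 12 direct comparisons and 5 differences of responses. Fold changes on this scale understate changes of scarce genes. The depth is unknown, and 2 libraries per group limit precision. Members and lists were chosen with earlier results of these data known. Named members were the up to 5 largest relative changes in each direction among those called, and members past a relative change of 1 were given in every library. Python 3.11.15, pandas 2.3.3 and matplotlib 3.10.9 made the summaries. The scaling, filter, pseudocount, block and left-out-library alternatives are in the closing section.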

Additional observations from a re-analysis of the deposited data

Results flagged for a closer look

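The responses of the lines were compared as differences of differences, with limma and Benjamini-Hochberg adjustment over all genes. Each response difference that passed is of interest because the change with treatment differed between lines. The level of each line without the treatment enters such a difference too. Differences of both mutant lines from wild type share the wild-type libraries. For palbociclib, 6 members differed between E545K and wild-type cells and 7 between H1047R and wild-type cells, where 25.7% and 22.6% of all genes did. ALDOC (−0.93 relative to the median of all genes) and INSIG2 (−0.63) were lower and HK2 (0.74) higher in the E545K response, and these differences held in all 15 settings tried. In the H1047R response INSIG2 was lower (−0.83) in every setting, whereas HK2 (0.67) and PFKFB3 (0.65) lost their call in 9 and 10 of 15 settings.

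For conditioned medium, 13 members differed in E545K and 24 in H1047R cells from the wild-type response, where 47.1% and 50.9% of all genes did. VEGFA (2.3) and NDRG1 (1.25) were higher and EGLN3 (−1.52) lower in the E545K response. In the H1047R response VEGFA was higher (1.27), and ANKRD37 (−1.87) and EGLN3 (−1.12) were lower. All 6 differences held in all 15 settings. The H1047R differences were opposite in sign to those from wild type in DMSO (VEGFA −1.26, ANKRD37 1.77 and EGLN3 1.16). In conditioned medium the H1047R and wild-type libraries overlapped for these genes. An unlike response and an unlike DMSO level therefore cannot be told apart for them.

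For erlotinib added to palbociclib, 8 members differed between H1047R and E545K cells, where 2.17% of all genes did. LDHA (0.78) kept its call in all 15 settings, while ANKRD37 (1.90) lost it in 6, with adjusted p up to 0.0795, and ALDOC (0.98) in 5, with adjusted p up to 0.0681.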

How the results depend on the processing

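Of 116 named gene results, 77 kept their call under all 7 alternatives (no filter, a pseudocount of 0.1, a replicate block, only the groups compared, the TPM scale, median-centring and quantile normalisation) and each left-out library; 39 lost it in at least 1, and 0 reversed. Replicate numbers were not treated as pairs. Correlations of replicate deviations between groups ran from −0.56 to 0.55 in the first table (median 0.07, over 0.1 in 15 of 36 group pairs). In the second they ran from −0.10 to 0.03. Whether some groups shared a batch was not tested. The replicate block moved 1 count of calls by over 1.5 times, that of erlotinib response differences, to 5. Of the named calls, it lost that of PFKFB3 in the H1047R palbociclib response difference (limma adjusted p = 0.0559). Median-centring gave 14 members called in E545K against wild type, 5 for palbociclib in wild-type cells and 14 for the conditioned-medium difference of H1047R. Without the filter, 4 members differed in the H1047R palbociclib response, 3 in the erlotinib response, and 7 were called for erlotinib in E545K cells. With only the groups compared, counts were 18 and 0 for palbociclib in wild-type and H1047R cells (for the latter, 6 members were higher and 1 lower at an unadjusted p below 0.05 in limma), 13 and 1 for the palbociclib differences of E545K and H1047R, 23 for the conditioned-medium difference of E545K, 3 for H1047R against E545K in the first table, and 19 and 2 for erlotinib in E545K and H1047R cells. Leaving out 1 library gave 17 to 19 members for E545K and 23 to 32 for H1047R against wild type, 4 to 5, 8 to 10 and 6 to 22 for palbociclib and 20 to 23, 12 to 14 and 12 to 21 for conditioned medium (wild type, E545K, H1047R). It gave 5 to 16 and 19 to 29 for H1047R against E545K in the first and second tables, and 4 to 6 and 4 to 28 for erlotinib in E545K and H1047R cells. The response differences ranged from 6 to 6 and 2 to 18 for palbociclib, 12 to 13 and 21 to 27 for conditioned medium (E545K, H1047R) and 1 to 30 for erlotinib. The cause of these moves was not tested. The depth is unknown and limits what can be said of scarce genes such as ANKRD37 and PFKFB4.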

Other observations

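PCK1 and TKT, genes of glucose metabolism outside glycolysis, had large changes within lists that did not move one way. In wild-type cells in conditioned medium, 3 of 5 gluconeogenesis genes were called higher and 1 lower, and 4 of 7 pentose-phosphate genes higher and 1 lower, where 51.9% and 18.6% of all genes were. PCK1, the gene of a gluconeogenic enzyme, was the one called lower, from 24.3 to 2.14 FPKM (relative log2 change −3.33, limma adjusted p = 2.34e-09), and it was lower than in wild-type cells by 3.21 in H1047R and 2.52 in E545K DMSO cells. TKT, the gene of transketolase, was the pentose-phosphate gene called lower, from 739 to 356 FPKM (−1.35), and in E545K cells under palbociclib it fell from 560 to 175 FPKM (−1.75, adjusted p = 1.64e-08). PCK2, the mitochondrial form of PCK1, rose in E545K cells when erlotinib was added, from 54.1 to 106 FPKM (0.97).

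Of 24 genes of pyruvate entry and the citrate cycle, 16 were called higher and 1 lower in wild-type cells in conditioned medium, with a median relative change of 0.09 and 13 of 24 above the median of all genes. In H1047R cells in conditioned medium 9 were called higher and 0 lower, against 8.65% and 5.97% of all genes. Among libraries of the second table, under palbociclib, 2 were higher and 15 lower in H1047R than in E545K cells, against 21.5% and 30.1% of all genes. Erlotinib had 0 called higher and 12 lower in E545K cells, against 7.10% and 9.11% of all genes, and 0 and 4 in H1047R cells, against 3.01% and 6.35%. These counts come from limma with adjustment over all genes. At an unadjusted p below 0.05, 0 were higher and 17 lower with erlotinib in E545K cells, 0 and 13 in H1047R cells, and 14 and 1 in H1047R cells in conditioned medium.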
